A study of Mus musculus with 6 samples.

Results

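The interferon-induced GTPases examined here were 10 mouse genes out of the 17570 measured in hearts after pressure overload. They comprised 4 immunity-related GTPases (IRG), Igtp, Iigp1, Irgm1 and Irgm2, and 6 guanylate-binding proteins (GBP), Gbp2, Gbp3, Gbp4, Gbp6, Gbp7 and Gbp9. They were chosen by their family and by their levels in the comparison of miR-27b-3p knockout with wild-type hearts, so their values in that comparison are given as a description, with no test. All 10 were found by Entrez Gene ID.

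The RNA came from hearts of 3 miR-27b knockout mice (KO/TAC) and 3 wild-type mice (WT/TAC), collected 8 weeks after transverse aortic constriction (TAC), a surgical narrowing of the aorta that loads the left ventricle. Mice were on the C57BL/6J background and 10 to 12 weeks old at the operation, and both groups had the operation, so every value describes a loaded heart and sham hearts were not analysed here. The knockout, made by TALEN injection into fertilized eggs, lacks 10 bp at the 3′ end of the mature miR-27b-3p, is carried in the germ line and is not restricted to cardiomyocytes. Levels are given in FPKM, fragments per kilobase of transcript per 1000000 mapped fragments, as deposited, so they can be compared between genes per length. miR-27b itself was not analysed here, so the genotype could not be checked from its own level. WT/TAC heart 1 stood apart from the other 5 hearts in tissue markers. The ventricular light chain Myl2 was at 14294, 13034 and 14329 FPKM in KO/TAC hearts, against 81.0, 11784 and 9735 FPKM in WT/TAC hearts, and Myl3 at 8807, 8171 and 8344 FPKM in KO/TAC hearts, against 188, 7964 and 7011 FPKM in WT/TAC hearts. The same heart had the highest level of the atrial light chain Myl7. Several counts are also given without it, but most values of single genes include it. The cause was not tested.

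IRG and GBP proteins are GTPases that mouse cells make in quantity after interferon, above all interferon-γ, and that act on the membranes of vacuoles holding parasites or bacteria. Irgm1, Irgm2 and Igtp (also named Irgm3) are the regulatory IRG proteins, which sit on the cell's own membranes and keep effector IRG proteins such as Iigp1 inactive there. Iigp1 and the GBPs collect on a vacuole that lacks these regulators and help to break it. Interferons induce such genes through short promoter motifs, among them the gamma-activated site (GAS), bound by STAT factors, and the interferon-stimulated response element (ISRE), bound by IRF factors.

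The promoters of the members are shown because the sequence was not used to choose the genes. RefSeq on GRCm38.p6 gave windows for 6 of the 10 members (Igtp, Irgm2, Irgm1, Gbp2, Gbp3 and Gbp7), and Iigp1, Gbp4, Gbp6 and Gbp9 are named only. The 110 bases before the annotated start are printed 5′ to 3′ on the strand of the gene, with exact matches of the ISRE core (GAAANNGAAA, or TTTCNNTTTC on the other strand) and of the GAS (TTCNNNGAA, its own reverse complement) in capitals.
Igtp, chr11:58199446-58199555, plus strand: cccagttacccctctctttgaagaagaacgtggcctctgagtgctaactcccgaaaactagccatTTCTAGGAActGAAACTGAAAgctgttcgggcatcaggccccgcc
Irgm2, chr11:58214867-58214976, plus strand: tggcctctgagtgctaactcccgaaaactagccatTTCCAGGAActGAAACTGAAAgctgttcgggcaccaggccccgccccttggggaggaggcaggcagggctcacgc
Irgm1, chr11:48871421-48871530, minus strand: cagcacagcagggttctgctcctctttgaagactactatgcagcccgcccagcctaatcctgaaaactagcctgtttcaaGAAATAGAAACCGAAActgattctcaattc
Gbp2, chr3:142620553-142620662, plus strand: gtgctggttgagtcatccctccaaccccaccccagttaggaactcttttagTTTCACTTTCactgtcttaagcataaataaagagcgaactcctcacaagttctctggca
Gbp3, chr3:142559934-142560043, plus strand: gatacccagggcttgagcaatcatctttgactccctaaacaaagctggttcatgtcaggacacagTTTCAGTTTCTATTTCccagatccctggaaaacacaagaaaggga
Gbp7, chr3:142530226-142530335, plus strand: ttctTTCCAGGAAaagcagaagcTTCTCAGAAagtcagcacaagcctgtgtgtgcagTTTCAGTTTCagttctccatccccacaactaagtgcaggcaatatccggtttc

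All 6 of these windows held the ISRE core within the 250 bases before the start, against 3.13% of the 9963 tested genes that had a window and 3.46% of all 27025 genes in the RefSeq table. Over the members and the other IRG and GBP genes together, 11 of 16 genes with a window held it. The GAS was found in 3 of the 6, Igtp, Irgm2 and Gbp7, against 7.1% of the tested genes. Both motifs stood together in those 3 windows and in 0.32% of the tested genes. In Irgm1 and Gbp3 the capitals run over a pair of overlapping ISRE cores. A further Gbp3 window from another annotated start held neither motif. A match of letters is a description and was not tested for binding.

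In Igtp and Irgm2 the GAS was followed by the ISRE core with the first bases of the motifs 11 bases apart, and their windows shared an identical run of 55 bases. This spacing was noticed after the sequences had been read. It occurred in 5 of the 27025 genes of the table, and all 5 were IRG genes on chromosome 11: Igtp, Irgm2, Tgtp1, Tgtp2 and Gm12185. The 3 that are not members are printed to show the pair of motifs, together with the bases before it, which are also largely shared.
Tgtp1, chr11:48992247-48992356, minus strand: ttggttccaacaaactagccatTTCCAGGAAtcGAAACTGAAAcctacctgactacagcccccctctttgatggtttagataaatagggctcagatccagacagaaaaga
Tgtp2, chr11:49064213-49064322, minus strand: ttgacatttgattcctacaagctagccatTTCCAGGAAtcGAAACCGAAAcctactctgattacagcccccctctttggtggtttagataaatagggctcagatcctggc
Gm12185, chr11:48927183-48927292, minus strand: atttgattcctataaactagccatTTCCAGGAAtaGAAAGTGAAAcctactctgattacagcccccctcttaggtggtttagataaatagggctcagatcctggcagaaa

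**Figure D1:**
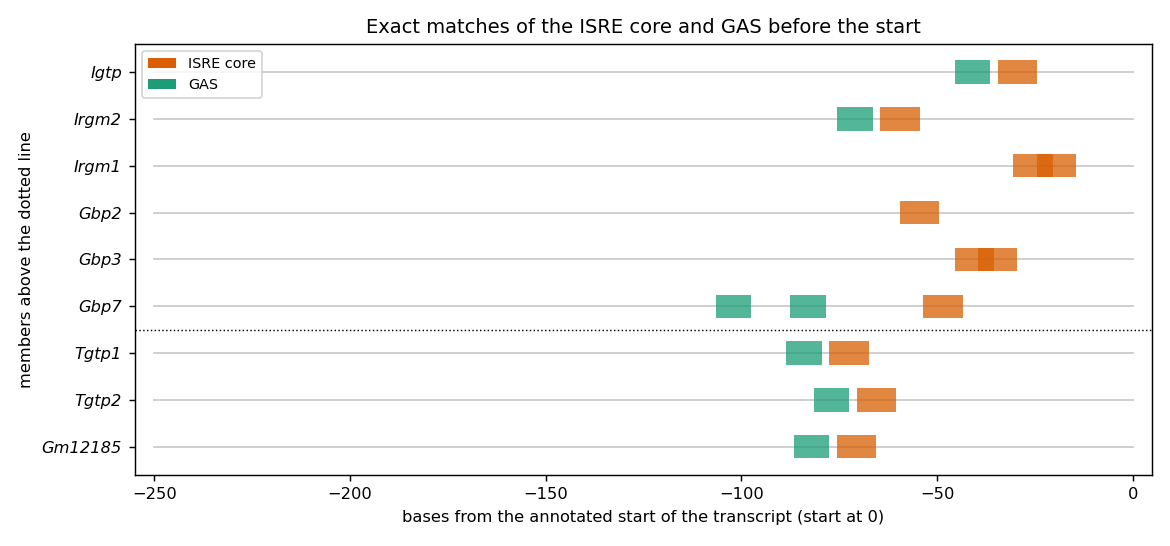
Position of each exact motif match in bases before the annotated start (x axis, start at 0) for the 6 members with a RefSeq window and, under the dotted line, the 3 other IRG genes with the same motif pair. Orange bars are ISRE cores and green bars are GAS. In Igtp, Irgm2, Tgtp1, Tgtp2 and Gm12185 the ISRE core follows the GAS with first bases 11 bases apart.

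Transcripts of the members were higher on average in KO/TAC hearts than in WT/TAC hearts for 10 of 10 genes. All 4 IRG genes had every KO/TAC heart above every WT/TAC heart, while the hearts overlapped for all 6 GBP genes. Whether the IRG genes differ from the GBP genes in their change was not tested. Ratios of mean FPKM ran between 1.58 and 2.84 for the IRG genes and between 1.16 and 2.01 for the GBP genes. The median fitted log2 fold change, on log2(FPKM + 0.5), was 1.23 over the IRG genes and 0.49 over the GBP genes, against -0.0047 over all 12520 genes tested.

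A gene was called at a p below 0.05 before adjustment, the level the study states, together with a change of 1.2-fold or more in the fit. Over all tested genes 11.1% passed them, 4.94% higher and 6.14% lower in KO/TAC, and 2 genes had an adjusted p under 0.05 (limma with Benjamini-Hochberg adjustment). In 8.46% of the genes the groups did not overlap with KO/TAC higher. Among the members 4 were past the limits, all IRG genes and all higher, and 4 did not overlap, but this contrast chose the members and nothing is read from these counts. Igtp, Irgm2 and Iigp1 also stand in the study's own list of differing genes, which was drawn from the same libraries.

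Igtp (Entrez Gene 16145), a regulatory IRG protein, had 40.1, 26.1 and 23.3 FPKM in KO/TAC hearts, against 7.95, 14.8 and 8.72 FPKM in WT/TAC hearts. The lowest KO/TAC heart was well above the highest WT/TAC heart, which was WT/TAC heart 2. The fitted log2 fold change was 1.47 (SE 0.29), the highest of the members. Irgm2 (54396), a regulator of the same type, had 31.1, 21.8 and 16.97 FPKM in KO/TAC hearts, against 8.90, 14.6 and 8.78 FPKM in WT/TAC hearts. KO/TAC heart 1 was again the highest and WT/TAC heart 2 again stood above the rest of its group. Its log2 fold change was 1.07 (SE 0.28).

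Igtp and Irgm2 have overlapping exons on the same strand in GENCODE M21, and 11.8% of the 50-base words of the Igtp transcripts also occur in other genes, most often Irgm2. The values of this pair are therefore not fully separate measurements.

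Irgm1 (15944), the regulator known in mice for its part in autophagy and in resistance to mycobacteria, had 25.9, 14.8 and 16.4 FPKM in KO/TAC hearts, against 12.4, 14.4 and 9.30 FPKM in WT/TAC hearts. KO/TAC heart 2 and WT/TAC heart 2 were nearly level, so the groups were only just apart. The log2 fold change was 0.62 (SE 0.25), the lowest among the IRG genes. Iigp1 (60440), the effector that coats vacuoles of Toxoplasma in mouse cells, had 15.7, 12.8 and 15.8 FPKM in KO/TAC hearts, against 5.01, 8.92 and 3.21 FPKM in WT/TAC hearts. The KO/TAC hearts were close to each other, and WT/TAC heart 2 was once more the highest of its group. The log2 fold change was 1.39 (SE 0.32).

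Gbp6 (100702) had the widest spread of the GBP genes, with 31.0, 8.91 and 12.5 FPKM in KO/TAC hearts, against 3.37, 16.1 and 6.53 FPKM in WT/TAC hearts. WT/TAC heart 2 exceeded KO/TAC hearts 2 and 3, so the log2 fold change of 1.03 had an SE of 0.62. Of its 50-base words 70.7% occur in other genes, most often in the overlapping gene model Gm43302, so its level may include reads of close copies. Gbp4 (17472) had 5.87, 4.43 and 5.27 FPKM in KO/TAC hearts, against 1.2, 7.01 and 2.44 FPKM in WT/TAC hearts. Its highest heart of all 6 was WT/TAC heart 2 and its lowest was WT/TAC heart 1, and the log2 fold change was 0.76 (SE 0.50).

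Gbp9 (236573) had 7.17, 5.0 and 6.03 FPKM in KO/TAC hearts, against 3.64, 6.91 and 2.78 FPKM in WT/TAC hearts. Gbp7 (229900) had 2.90, 1.77 and 2.04 FPKM in KO/TAC hearts, against 0.97, 2.66 and 1.01 FPKM in WT/TAC hearts. Both showed the same order of hearts, with KO/TAC heart 1 highest, WT/TAC heart 2 next and the other WT/TAC hearts lowest. Gbp3 (55932), with 4.78, 2.87 and 4.88 FPKM in KO/TAC hearts against 2.45, 4.96 and 2.02 FPKM in WT/TAC hearts, had its maximum in WT/TAC heart 2. Their log2 fold changes were 0.48 for Gbp9 (SE 0.31), 0.49 for Gbp7 (SE 0.34) and 0.41 for Gbp3 (SE 0.33).

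Gbp2 (14469) varied least between hearts, with 13.0, 11.8 and 10.5 FPKM in KO/TAC hearts, against 10.6, 11.4 and 8.50 FPKM in WT/TAC hearts. The groups overlapped and the log2 fold change was 0.21 (SE 0.15), the lowest of the 10.

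**Figure D2:**
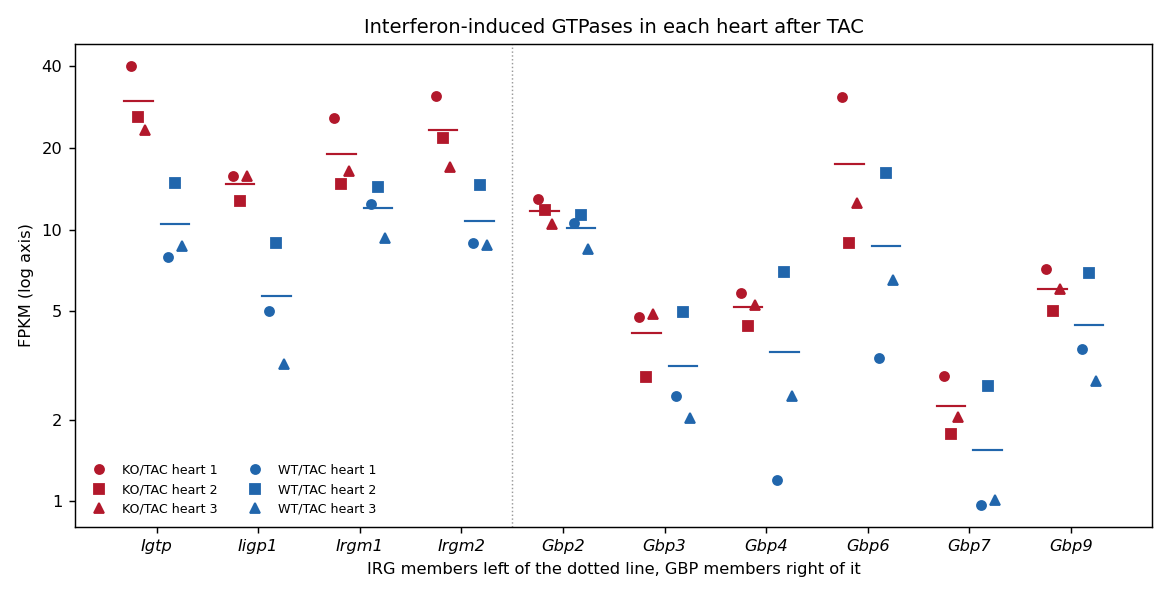
FPKM of each member (log y axis) in the 3 KO/TAC hearts (red, left of each pair) and the 3 WT/TAC hearts (blue, right), with the marker shape giving the heart and short lines the group mean. The 4 IRG genes left of the dotted line have all KO/TAC hearts above all WT/TAC hearts, and WT/TAC heart 2 (blue square) reaches into the KO/TAC range for the 6 GBP genes.

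In level, the regulatory IRG genes led the family in both genotypes. The order of mean FPKM in KO/TAC hearts was Igtp (29.8 ± 9.02, SD, n = 3), Irgm2 (23.3 ± 7.19), Irgm1 (19.0 ± 5.98), Gbp6 (17.5 ± 11.8), Iigp1 (14.8 ± 1.72) and Gbp2 (11.8 ± 1.23), with the remaining GBP genes between 2.24 and 6.07. In WT/TAC hearts it was Irgm1 (12.0 ± 2.56), Irgm2 (10.8 ± 3.33), Igtp (10.5 ± 3.78), Gbp2 (10.2 ± 1.48), Gbp6 (8.68 ± 6.65) and Iigp1 (5.71 ± 2.92), with the remaining GBP genes between 1.55 and 4.44. In WT/TAC hearts the means of neighbours differed by less than the larger of their SDs down to Gbp3, and by about that SD between Gbp3 and Gbp7. In KO/TAC hearts they did so except between Iigp1 and Gbp2, between Gbp2 and Gbp9, and between Gbp3 and Gbp7. Summed over the 4 IRG genes the level was 113, 75.3 and 72.4 FPKM in KO/TAC hearts, against 34.3, 52.7 and 30.0 FPKM in WT/TAC hearts, with no overlap. Summed over the 6 GBP genes it was 64.7, 34.8 and 41.3 FPKM in KO/TAC hearts, against 22.2, 49.0 and 23.3 FPKM in WT/TAC hearts, and WT/TAC heart 2 lay above KO/TAC hearts 2 and 3.

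The members also varied together from heart to heart within a genotype. WT/TAC heart 2 was the highest WT/TAC heart for 10 of 10 members, and KO/TAC heart 1 was the highest KO/TAC heart for 8 of 10. The level in WT/TAC heart 2 was a median of 2.16 times the mean of the other WT/TAC hearts, ranging over members between 1.19 and 3.85. For 9 of 10 members every KO/TAC heart was above both WT/TAC hearts 1 and 3, the exception being Gbp2, whereas WT/TAC heart 2 exceeded at least 1 KO/TAC heart for the 6 GBP genes and all of them for Gbp3 and Gbp4. Leaving out WT/TAC heart 2 raised the number of members past the limits to 9, all except Gbp2, and the median log2 fold change to 1.08 from 0.69 with all hearts. That heart was the highest of its group for 10 of 10 members, so leaving it out could only raise their fold changes. Counts with a heart left out stand here without the share of all genes in the same fit, and nothing is read from them. The absence of overlap in the 4 IRG genes does not rest on WT/TAC heart 1, since WT/TAC heart 2 was the highest of its group in each. Leaving out KO/TAC heart 1 or 3, or WT/TAC heart 1 or 3, left 3 past the limits, Igtp, Irgm2 and Iigp1.

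**Figure D3:**
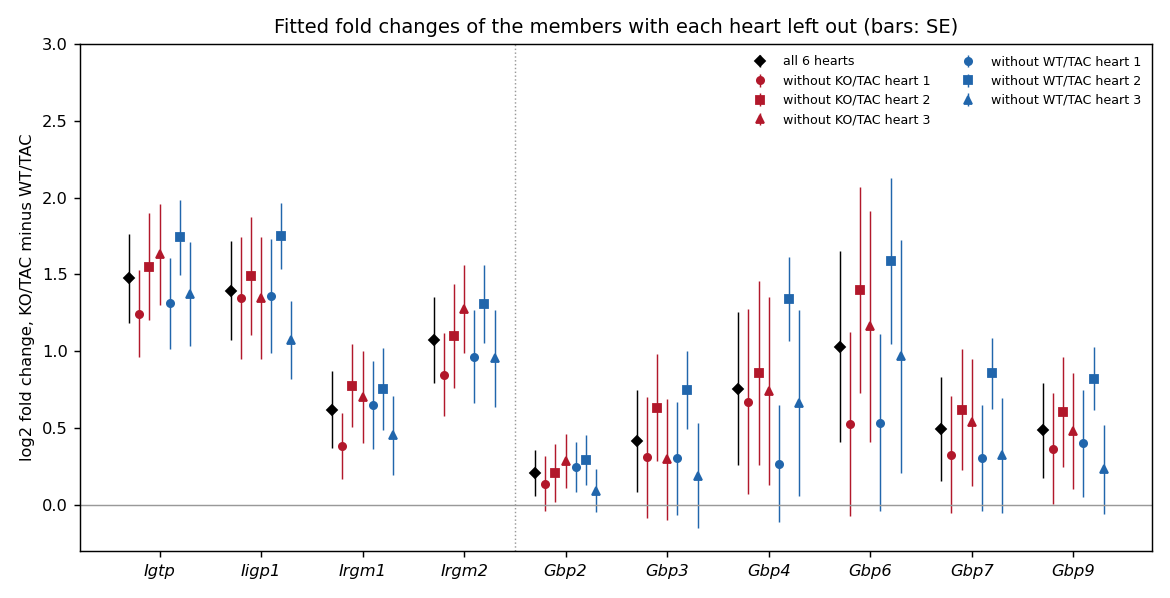
Fitted log2 fold change (KO/TAC minus WT/TAC, y axis, bars are SE) of each member with all 6 hearts (black) and with 1 heart left out (red, a KO/TAC heart; blue, a WT/TAC heart). Leaving out WT/TAC heart 2 (blue square) gives the highest value for 9 of the 10 members, all but Irgm1, and Igtp, Iigp1 and Irgm2 stay above 0.8 throughout.

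Lists drawn up by function gave the other genes of the pathway, 158 in the files in 9 lists. Of these, 143 reached the mean of 0.5 FPKM needed for a test. Among the tested genes 9 were past the limits higher and 8 lower in KO/TAC, and 0 had an adjusted p under 0.05 (limma). Their median log2 fold change was 0.12. Without WT/TAC heart 1, 3 of 145 were past the limits higher and 10 lower. The calls below are therefore at the unadjusted limit, and each is set beside the background shares of 4.94% higher and 6.14% lower.

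Ifng, which encodes interferon-γ and was the only interferon gene analysed here, was listed at 0 in 5 hearts and at 0.06 FPKM in KO/TAC heart 2. Il15, a cytokine that maintains natural killer and memory T cells, was higher in KO/TAC, with 21.5, 28.3 and 37.1 FPKM, against 14.5, 10.5 and 16.3 FPKM in WT/TAC (log2 fold change 1.03, SE 0.24, adjusted p = 0.263 by limma). KO/TAC heart 3 was highest for Il15, a heart that was not the highest for most GTPases. Among ligands and inducing cytokines, 7 were in the files and 2 were tested.

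None of the 9 receptor and JAK kinase genes passed the limits, and their median log2 fold change was 0.023. The pair with the smallest p values were Ifngr2, the signalling chain of the interferon-γ receptor (log2 fold change 0.18, SE 0.12, adjusted p = 0.632 by limma), and Ifnlr1, the interferon-λ receptor (0.35, SE 0.26, adjusted p = 0.656 by limma). The 13 STAT and IRF genes tested had a median log2 fold change of 0.19. Stat3, which carries signals of the interleukin-6 family, was lower, with 45.8, 45.9 and 41.0 FPKM in KO/TAC, against 56.2, 54.1 and 57.9 FPKM in WT/TAC (log2 fold change -0.34, SE 0.10, adjusted p = 0.334 by limma).

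Of 14 inhibitors of interferon signalling, 0 were higher and 3 lower. Ptpn1, a phosphatase that acts on JAK2 and TYK2, had 7.47, 7.98 and 7.08 FPKM in KO/TAC, against 11.6, 9.31 and 11.1 FPKM in WT/TAC (log2 fold change -0.47, SE 0.13). Socs3, which blocks JAK kinases bound to receptors of the interleukin-6 family, had 2.68, 3.26 and 1.62 FPKM in KO/TAC, against 5.04, 3.52 and 5.80 FPKM in WT/TAC (log2 fold change -0.82, SE 0.27). Irf2bp2, a corepressor partner of IRF2, had 10.98, 13.1 and 12.8 FPKM in KO/TAC, against 26.3, 16.2 and 16.8 FPKM in WT/TAC (log2 fold change -0.63, SE 0.20). The groups did not overlap for any of the 3, and their adjusted p values were 0.288, 0.359 and 0.356 in that order (limma).

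Of the 16 other IRG and GBP genes in the files 9 were tested, and 3 were past the limits, all higher, with a median log2 fold change over the 9 of 0.43. The 3 passed the filter only through their KO/TAC levels. Their WT/TAC means were 0.26 (Gm4841), 0.48 (F830016B08Rik) and 0.18 FPKM (Gbp10), under the 0.5 FPKM needed. Nothing is therefore read from this count or from the median that includes these genes. Gm4841, an IRG gene, had 5.02, 1.62 and 1.93 FPKM in KO/TAC hearts, against 0.13, 0.50 and 0.15 FPKM in WT/TAC hearts (log2 fold change 2.04, SE 0.40, adjusted p = 0.229 by limma). The groups were well apart, at low levels. F830016B08Rik, another IRG gene, had 2.33, 1.49 and 0.76 FPKM in KO/TAC, against 0.25, 0.73 and 0.45 FPKM in WT/TAC (log2 fold change 1.01, SE 0.34, adjusted p = 0.368 by limma). Gbp10 had 2.57, 0.34 and 1.19 FPKM in KO/TAC, against 0.00, 0.46 and 0.07 FPKM in WT/TAC (log2 fold change 1.33, SE 0.50, adjusted p = 0.401 by limma), with 84.1% of its 50-base words found in other genes, most often Gbp6.

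The other 6 tested genes of the families did not pass the limits. Tgtp2, the effector with the widest range, had 10.1, 6.74 and 9.13 FPKM in KO/TAC, against 2.86, 13.1 and 3.31 FPKM in WT/TAC (log2 fold change 0.70, SE 0.52). Tgtp1 had 4.14, 2.99 and 3.91 FPKM in KO/TAC, against 1.23, 7.44 and 1.61 FPKM in WT/TAC (0.43, SE 0.55), and Ifi47 had 5.85, 2.25 and 4.08 FPKM in KO/TAC, against 2.44, 5.95 and 1.88 FPKM in WT/TAC (0.28, SE 0.45). All 3 had their maximum in WT/TAC heart 2, like Gbp3 and Gbp4. Tgtp1 and Tgtp2 are near copies, with 81.2% and 86.6% of their words in other genes. Gbp5 (log2 fold change 0.33), 9930111J21Rik1 (0.27) and Irgq (-0.087), an IRG relative with divergent nucleotide-binding motifs, completed the tested set. Irgq, at 8.12 to 8.97 FPKM in KO/TAC and 8.17 to 10.7 FPKM in WT/TAC, did not show the pattern of hearts seen in the members. Gbp2b, Gbp8, Irgc1, Gm4951, Gm12185, Gm5431 and 9930111J21Rik2 fell under the filter, and none exceeded 1.00 FPKM in any heart.

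Without WT/TAC heart 2, 6 of the 9 other family genes were past the limits, all higher, and the pathway genes past the limits numbered 37, 29 of them higher. Without WT/TAC heart 1, 1 of 10 other family genes was. These counts also stand without the share of all genes in the same fit, and nothing is read from them.

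**Figure D4:**
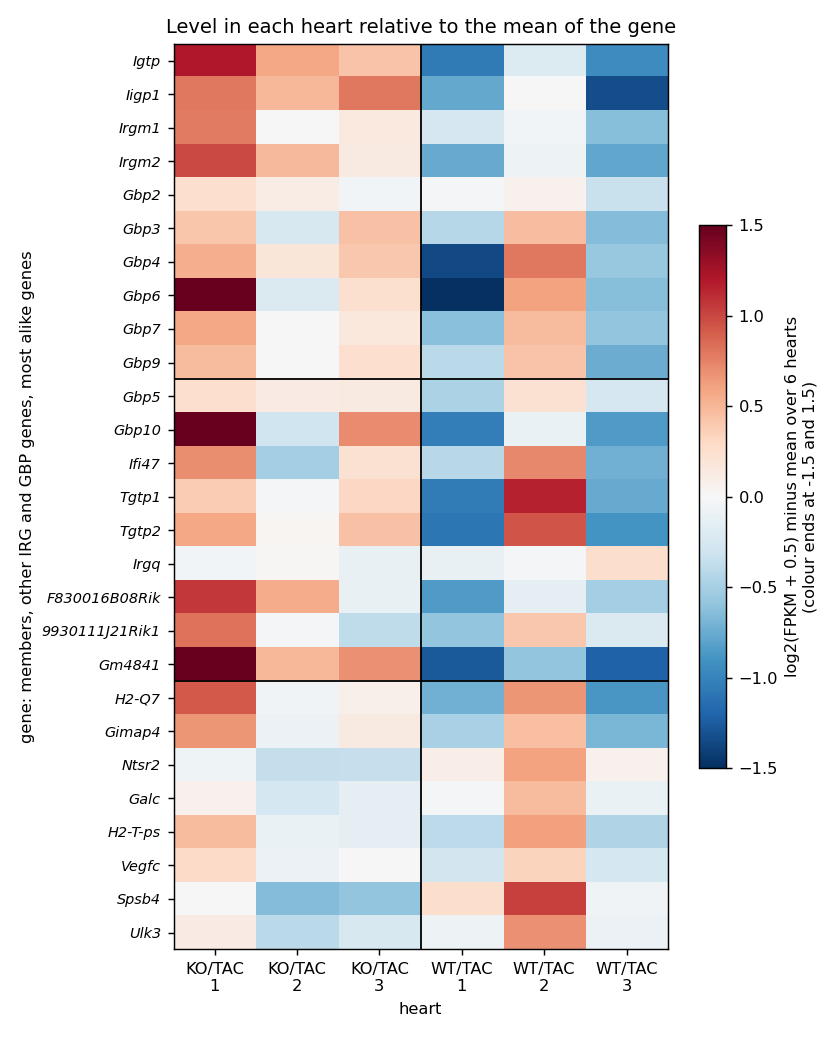
Level of each gene in each heart as log2(FPKM + 0.5) minus the mean of that gene over the 6 hearts (colour, red higher and blue lower, saturating at the ends of the scale), with KO/TAC hearts left of the vertical line and WT/TAC hearts right of it. The blocks are the 10 members, the 9 tested other IRG and GBP genes and the 8 genes most alike to the members. WT/TAC heart 2 is redder than the other WT/TAC hearts in each of the 10 member rows.

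Genes that interferon-γ induces but that are not GTPases had 35 tested, with 4 higher, 2 lower and a median log2 fold change of 0.22. Without WT/TAC heart 1, 1 of the 35 was higher, Psme1, and 2 were lower. Psme1, a subunit of the proteasome activator PA28, had 166, 163 and 143 FPKM in KO/TAC, against 81.0, 109.9 and 115 FPKM in WT/TAC (log2 fold change 0.64, SE 0.16, adjusted p = 0.278 by limma). The other 3 higher genes belong to antigen presentation by MHC class II: H2-Eb1, H2-Aa and Cd74. None of these was called without WT/TAC heart 1. H2-Eb1 had 92.2, 44.0 and 52.7 FPKM in KO/TAC, against 11.7, 43.1 and 27.5 FPKM in WT/TAC (log2 fold change 1.29, SE 0.49, adjusted p = 0.403 by limma), where KO/TAC heart 2 and WT/TAC heart 2 were nearly level. H2-Aa and Cd74, which the rule for named genes did not choose, had log2 fold changes of 1.32 and 1.21.

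The 2 lower genes of that list were Serping1, the C1 inhibitor, and Icam1, an adhesion molecule that NF-κB also induces. Serping1 had 88.1, 76.6 and 66.3 FPKM in KO/TAC, against 173, 116 and 132 FPKM in WT/TAC (log2 fold change -0.85, SE 0.18, adjusted p = 0.251 by limma). Icam1 had 9.34, 8.24 and 7.96 FPKM in KO/TAC, against 42.8, 11.2 and 20.4 FPKM in WT/TAC (log2 fold change -1.29, SE 0.43, adjusted p = 0.366 by limma). In both, WT/TAC heart 1 was highest, the heart in which most GTPases were low.

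Of 39 tested genes better known for type I interferon, 0 were higher and 1 lower, with a median of 0.17, and 4 were higher without WT/TAC heart 2. The difference between the lists was not tested, and nothing is read from the count without that heart. The lower one was Ifi27l2a, at 28.5, 32.1 and 31.5 FPKM in KO/TAC, against 52.3, 39.6 and 68.2 FPKM in WT/TAC (log2 fold change -0.76, SE 0.20, adjusted p = 0.288 by limma). Among Mx, GVIN and atlastin GTPases 0 of 5 tested genes passed the limits, with Gvin1, a very large interferon-induced GTPase, at 2.90, 2.56 and 2.88 FPKM in KO/TAC, against 0.48, 4.23 and 1.91 FPKM in WT/TAC, and Atl1 at a log2 fold change of -0.27 (SE 0.19). Of 17 genes for ATG8 conjugation and autophagy adaptors, the machinery that places IRG and GBP proteins on vacuoles, 0 were higher and 1 lower, Gabarapl1, at 82.1, 83.5 and 74.0 FPKM in KO/TAC, against 138, 101 and 108 FPKM in WT/TAC (log2 fold change -0.52, SE 0.15, adjusted p = 0.299 by limma).

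**Figure D5:**
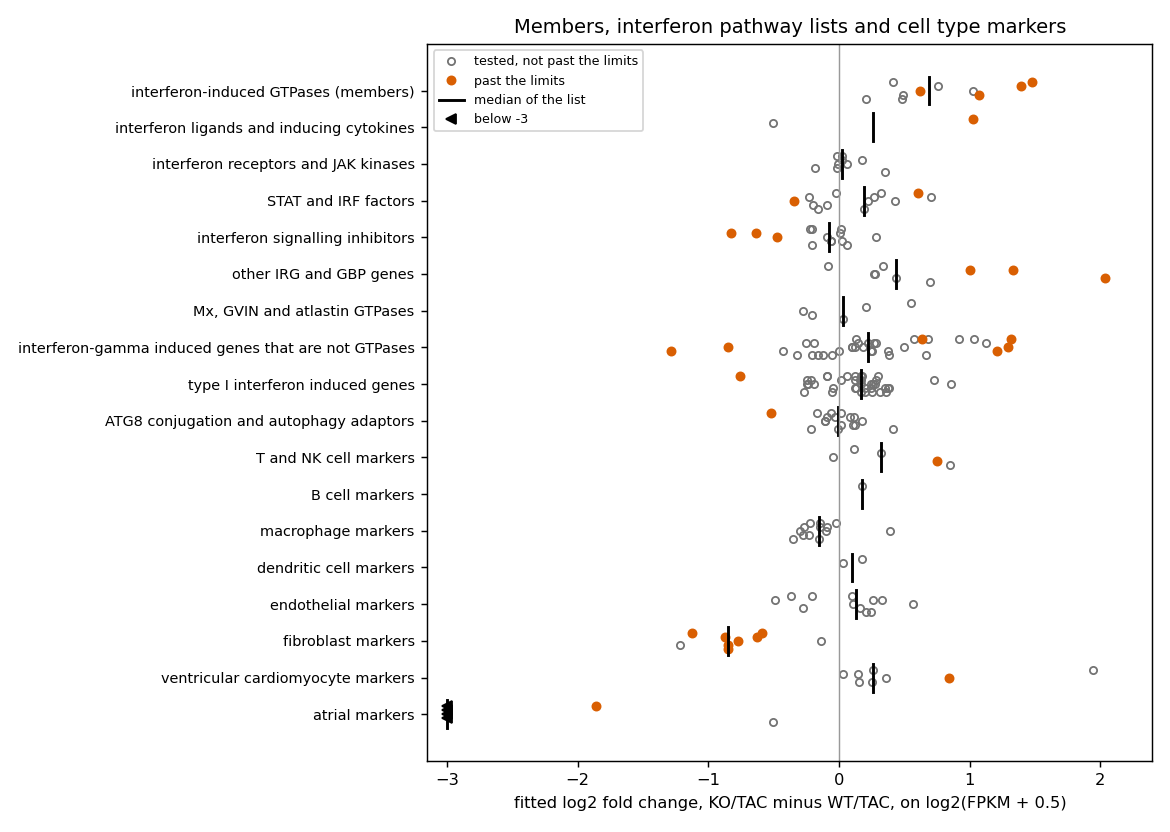
Fitted log2 fold change (x axis, KO/TAC minus WT/TAC) of each tested gene in the members, the 9 pathway lists and the 8 marker lists (rows), with filled points past the limits and black bars at list medians. Triangles at the left edge are genes below -3, and the median of the atrial markers, -4.5, is drawn there. The medians of the members and of the other IRG and GBP genes are at 0.69 and 0.43. The latter includes Gm4841, F830016B08Rik and Gbp10, which passed the filter only through their KO/TAC levels.

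Hearts hold several cell types, and in bulk RNA fewer cells of a type and less RNA per cell cannot be told apart. T and NK cell markers were low: 5 of 18 passed the filter, and their summed level was 6.85 to 16.6 FPKM in KO/TAC and 6.33 to 7.75 FPKM in WT/TAC. KO/TAC heart 1 held the 16.6 and WT/TAC heart 2 the 7.75. KO/TAC heart 1 was also the highest KO/TAC heart for 8 members. Ncr1 of NK cells was listed at 0 in 4 of the 6 hearts. B cell markers summed to 3.60, 1.31 and 0.99 FPKM in KO/TAC hearts, against 0.90, 2.92 and 0.89 FPKM in WT/TAC hearts, so the highest heart of each genotype was also the one with the highest summed level of the 10 members within that genotype. The part of these cells in the GTPase levels was not tested.

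Macrophage markers had 13 of 13 tested and 0 past the limits, with summed levels of 379 to 498 FPKM in KO/TAC and 481 to 576 FPKM in WT/TAC. Endothelial markers had 0 of 12 past the limits, with sums of 510 to 613 FPKM in KO/TAC and 522 to 641 FPKM in WT/TAC. Dendritic cell markers had 2 of 7 tested and 0 past the limits. They summed to 9.51, 5.81 and 7.03 FPKM in KO/TAC hearts, against 4.86, 9.47 and 6.55 FPKM in WT/TAC hearts. The highest heart of each genotype was thus the same as for the B cell markers. Fibroblast markers were lower, 7 of 9 past the limits, with sums of 326 to 428 FPKM in KO/TAC and 491 to 767 FPKM in WT/TAC. Ventricular cardiomyocyte markers had 1 of 9 higher, Pln, and sums of 56520 to 58000 FPKM in KO/TAC, against 29130, 48100 and 48300 FPKM in WT/TAC hearts, where the low value is WT/TAC heart 1.

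The atrial markers separated hearts within each genotype. Myl7, the atrial myosin light chain, was at 0.25, 333 and 0.66 FPKM in KO/TAC hearts, against 8140, 0.23 and 1135 FPKM in WT/TAC hearts. The hearts with Myl7 under 1 FPKM were KO/TAC hearts 1 and 3 and WT/TAC heart 2, and the highest heart of each genotype was among these 3 for 10 of 10 members. With log2 Myl7 as a covariate, a fit chosen after the data were seen, the median log2 fold change of the members was 0.27, and Igtp (1.21, SE 0.24), Iigp1 (1.09, SE 0.26) and Irgm2 (0.87, SE 0.27) stayed past the limits while Irgm1 did not (0.44, SE 0.24). The GBP genes were then between 0.040 and 0.34. This contrast chose the members, so nothing is read from their calls in this fit. Without WT/TAC heart 1, which has the highest Myl7, the median over the members was 0.47. The part of atrial tissue in the GTPase levels was not otherwise tested.

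The pattern of the members over the 6 hearts, with each genotype centred on its own mean, was compared with the 11522 genes that averaged 1 FPKM or more. Pearson r with the mean of the scaled members is given as a description, since 6 hearts centred in 2 groups share their libraries and leave few independent points. The most alike genes outside the lists were H2-Q7 (r = 0.999), a class Ib MHC gene, Gimap4 (0.997), a lymphocyte GTPase, the neurotensin receptor gene Ntsr2 (0.996), the lysosomal hydrolase gene Galc (0.994), H2-T-ps (0.992), the lymphatic growth factor gene Vegfc (0.991), Spsb4 (0.991) and the kinase gene Ulk3 (0.991). H2-Q7 had 22.8, 11.4 and 12.6 FPKM in KO/TAC hearts, against 7.0, 19.0 and 6.22 FPKM in WT/TAC hearts, so KO/TAC heart 1 and WT/TAC heart 2 were high. Ntsr2 and Spsb4, with the same order of hearts within a genotype, were past the limits in the other direction, with log2 fold changes of -0.52 and -0.83.

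By list, the median r was 0.838 over 34 interferon-γ genes that are not GTPases, 0.861 over 7 other IRG and GBP genes and 0.725 over 36 type I interferon genes, against 0.038 over all genes. In the first of these lists 20 of 34 genes had r above 0.8, against 860 of 11522 over all genes. Receptors and JAK kinases had a median r of 0.194, inhibitors 0.011 and atrial markers -0.754. Each member's own r, taken with the mean of the other members so that its own values were left out, was between 0.714 (Gbp2) and 0.98 (Gbp7).

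Sites for the deleted microRNA were searched because the sequence was not used to choose the genes. The mature mmu-miR-27b-3p, at chr13:63300760-63300780 on the plus strand of GRCm38.p6 (RefSeq), is printed with its seed, bases 2 to 8, in capitals. For each gene the longest annotated 3′ UTR (GENCODE M21, GRCm38), counted from the stop codon, was searched for ACTGTGA, the reverse complement of the seed, which stands in capitals in the sites below.
mmu-miR-27b-3p: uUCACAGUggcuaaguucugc
Irgm2, chr11:58222539-58222545, plus strand: cactgaggaaACTGTGAtctcactgtt
Gbp2, chr3:142637927-142637933, plus strand: ttatctccccACTGTGAcaacatgtct
Gbp7, chr3:142547277-142547283, plus strand: gctcaggaacACTGTGAaagaggaaac
Gbp4, chr5:105118278-105118284, minus strand: aaaaggatagACTGTGAtacacacttt
Gbp6, chr5:105273065-105273071, minus strand: gaaatgatagACTGTGAaatacacttt
Gbp9, chr5:105080045-105080051, minus strand: tgatagACTGTGAcataagcatt

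The site occurred in 6 of the 10 members, with a second one in Gbp4, against 18.92% of 12193 tested genes with a 3′ UTR. The UTRs of the members were longer, with a median of 1848.5 bases against 1354 bases, so the shares are not matched for length. Gbp4, Gbp6 and Gbp9, which lie in 1 cluster, share the bases before their sites and are not separate cases. Igtp, Iigp1, Irgm1 and Gbp3 had no match. Coordinates are those of the site alone, and no binding was measured. Whether a site bears on the level of its gene was not tested.

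The members lie in 5 places of the mouse genome: Irgm1 on chromosome 11, Igtp with Irgm2 elsewhere on chromosome 11, Iigp1 on chromosome 18, Gbp2, Gbp3 and Gbp7 on chromosome 3, and Gbp4, Gbp6 and Gbp9 on chromosome 5. Of the 20 nearest tested genes beside these places that are neither IRG nor GBP, 4 were past the limits, all higher, against the 11.1% of all genes. Kyat3, a kynurenine aminotransferase beside the Gbp3 cluster, had 20.8, 20.2 and 20.8 FPKM in KO/TAC, against 13.3, 13.5 and 13.6 FPKM in WT/TAC (log2 fold change 0.59, SE 0.098, adjusted p = 0.18 by limma). Its hearts were nearly level within each genotype, with no rise in WT/TAC heart 2. Trim7, beside Irgm1, had 19.0, 19.3 and 23.9 FPKM in KO/TAC, against 2.27, 9.71 and 10.8 FPKM in WT/TAC (log2 fold change 1.63, SE 0.52, adjusted p = 0.352 by limma). Mrpl22, a mitochondrial ribosomal gene beside Igtp, and Olfr1396 had log2 fold changes of 0.49 and 1.17.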

How the data were processed

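RNA of 3 KO/TAC and 3 WT/TAC hearts was sequenced by the authors with a stranded kit, and the deposited values are FPKM, 1 file per heart, for 17570 Entrez Gene IDs. Per the submitters' processing notes, HISAT2 2.0.5 and StringTie 1.3.3 were used. How shared reads were counted, which genome build served the mouse reads and what was filtered is not given in the sources used here. FPKM from StringTie can split or mix reads of near-identical IRG and GBP copies.

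The depth estimated from the spacing of the lowest FPKM of 714 genes was 13.0 to 13.1 in KO/TAC and 14.8 to 15.9 in WT/TAC, in units of 1000000 fragments, with 61.2% to 72.2% of low values within 0.2 of a step where chance gives 40%. Whole reads could thus not be recovered and no count test was run. Summed FPKM was 519562 to 553716, and the top 20 genes held 21.95% to 26.83%.

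Symbols came from RefSeq for 17441 IDs. The 12520 genes averaging 0.5 FPKM or more were tested across all genes on log2(FPKM + 0.5) with limma 3.58.1 in R 4.3.3 (lmFit and eBayes with trend), two-sided, with Benjamini-Hochberg adjustment. A fold change on this scale understates the change of low genes. The limma fit was tested on simulated data. Python 3.11.15, numpy 2.4.6, pandas 2.3.3 and matplotlib 3.10.9 were used for the rest. Motifs were searched on both strands. A few genes of the lists are not reported here.

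The members and the gene lists were chosen with earlier results of these data known. Named genes were the members, all measured IRG and GBP genes, up to 4 genes past the limits per pathway list (or the 2 with the smallest p), the 8 genes most alike, and the 2 nearest tested genes on each side of each member cluster. H2-Aa, Cd74, Pln, Ncr1, Ifng, Myl2, Myl3 and Myl7 were named after their values were seen. Nothing states that hearts of a group were more than separate samples, so p-values measure the spread between these hearts.

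Alternatives were other pseudocounts (0.1 and 1), no filter or one at 5 FPKM, quantile normalization, median-ratio scaling, robust eBayes, eBayes without the trend, a replicate block, a gene by gene test, leaving out each heart and, added after the data were seen, log2 Myl7 as a covariate.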

Additional observations from a re-analysis of the deposited data

How the results depend on the processing

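With 3 hearts a group, single hearts set much of the outcome. The 4 IRG genes were past the limits under all pseudocounts, filters, rescalings and eBayes settings run. None of the GBP genes tested was, except without WT/TAC heart 2. The members were chosen from this same contrast, so nothing is read from their calls in these fits. With the filter at 5 FPKM, Gbp2, Gbp6 and Gbp9 were the only GBP genes tested. Irgm1 dropped out in the gene by gene test, with log2 Myl7 as a covariate and without KO/TAC heart 1, KO/TAC heart 3, WT/TAC heart 1 or WT/TAC heart 3. Over the hearts left out in turn, the members past the limits numbered 3 to 9, the pathway genes 10 to 37 and all genes 626 to 1973, with a member median log2 fold change of 0.45 to 1.08. The gene by gene test gave 9 pathway genes, and the cause was not tested.

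Same-numbered hearts did not deviate together (r of -0.289, -0.565 and -0.346 over 12520 genes, and 0 of 3 correlated best with its own number). No pairing by number was thus seen, but this check cannot exclude one, since hearts of a group also differed in atrial markers. With the replicate block 879 genes were past the limits, against 1387 without it, and the members past them were 4 in both fits.

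Of the named pathway genes, H2-Eb1, Gbp10, F830016B08Rik, Irf2bp2, Socs3, Icam1 and Stat3 lost their call under at least 2 settings, while Il15, Psme1, Ptpn1, Serping1, Ifi27l2a and Gabarapl1 kept theirs under all settings in which they were tested. Gm4841 kept its call too, but it passed the filter only through its KO/TAC levels, so nothing is read from that. For single genes 36 comparisons lost and 5 gained a call, 539 showed no such change and 0 turned round. Including the bases after the start or allowing 1 mismatch only widens the search, so the 6 of 6 windows with the ISRE core could not become fewer. With 1 mismatch 28.82% of the tested genes also held it. Low genes such as Gm4841 and Gbp10 sit near the filter, where FPKM rest on few fragments.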
